A study of Oryctolagus cuniculus with 6 samples.

Results

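The nuclear-encoded subunits of the mitochondrial respiratory chain were described in rabbit limbal stem cells (LSCs), the epithelial stem cells at the border of the cornea. The subunits were chosen by gene symbol alone, as the rows named NDUFA, NDUFB, NDUFC, NDUFS or NDUFV with a number, SDHA to SDHD, UQCR, COX4 to COX8, and ATP5F, ATP5M or ATP5P. This rule gave 59 of the 22190 genes in the count table. By name 35 were assigned to complex I, 4 to complex II, 1 to complex III, 2 to complex IV and 17 to complex V. All 59 passed the filter on low counts. Poly(A) RNA was sequenced from 3 libraries of the fresh group, LSCs grown from fresh rabbit tissue, and 3 libraries of the preconditioned group, LSCs grown from tissue kept for 7 days in liquid nitrogen in a medium with 10 ng/mL IL-1β. Freezing and the cytokine were applied together, so their effects cannot be told apart, and no source used here says whether the 3 libraries of a group came from separate animals.

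Complexes I to IV pass electrons from NADH and succinate to oxygen, and complexes I, III and IV pump protons across the inner mitochondrial membrane while they do so. Complex V, the ATP synthase, lets the protons back and makes ATP. Most subunits are encoded in the nucleus and imported, whereas a small set of hydrophobic core subunits of complexes I, III, IV and V is encoded by the mitochondrial genome, and complex II is wholly nuclear. Corneal epithelium is also known for a large share of energy from glycolysis.

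Totals were between 31952352 and 34327534 counts per library. Scaling factors were 1.055, 1.061 and 1.066 in the fresh and 0.965, 0.914 and 0.951 in the preconditioned libraries. Scaling thus raised values in every preconditioned library against every fresh library. The cells carried markers of limbal and corneal epithelium in both groups, with 7 of 9 listed markers in the table under their symbols and summed levels of 9753 to 13480 CPM (counts scaled to a common library total) in the fresh and 9163 to 13490 CPM in the preconditioned libraries. Conjunctival markers were present as well, at summed levels of 2655 to 4690 CPM in fresh and 1910 to 4663 CPM in preconditioned libraries. This sum was mostly KRT19, and none of the 4 conjunctival markers in the table passed the test. Markers of stromal fibroblasts, of which 10 of 10 were in the table, summed to 529 to 1144 CPM in fresh libraries and 1298 to 2321 CPM in preconditioned ones. Among them only COL1A1, a fibrillar collagen chain, passed the test, with a log2 fold change of 2.66, while 4 of the 10 were negative. Without COL1A1 the sums overlapped, at 472 to 1035 CPM and 778 to 1629 CPM. Immune markers summed to 103 to 136 CPM against 125 to 317 CPM, with the common leukocyte marker PTPRC at no more than 1.5 CPM in any library. Most of this sum was CD68, a macrophage marker also found in lysosomes of other cells, at 97.6, 129 and 93.4 CPM against 120.5, 299 and 288 CPM (1.14 ± 0.34, adjusted p = 0.085). The limbal and corneal sum was mostly KRT5, a basal keratin. TP63, a limbal stem cell marker, was at 226 to 246 CPM in the fresh and 112 to 183 CPM in the preconditioned group, without overlap (-0.77 ± 0.19, adjusted p = 0.059). Of the 7 limbal and corneal markers 3 were positive and 4 negative, with a median log2 fold change of -0.04. EPCAM, an epithelial adhesion protein, was at 0.50 ± 0.13 (adjusted p = 0.060) and PAX6, a transcription factor of the eye, at 0.81 ± 0.28 (adjusted p = 0.11). KRT3, a keratin that marks differentiation, ran from 409 to 2654 CPM in the fresh and 239 to 800 CPM in the preconditioned libraries (-1.21 ± 0.72, adjusted p = 0.30). Muscle and pericyte markers, of which 4 of 6 were in the table, summed to 16.7 to 49.7 CPM in fresh and 36.2 to 143 CPM in preconditioned libraries. Of these RGS5, a pericyte marker, rose, from 0.618 to 0.956 CPM to 54.3, 31.8 and 2.86 CPM (5.23 ± 1.04, adjusted p = 0.045). The part of these cells in the results below was not tested, and in bulk RNA fewer cells of a type and less RNA per cell cannot be told apart.

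The nuclear-encoded subunits had mostly small positive differences in the preconditioned group. The log2 fold change was positive for 50 of 59 subunits and negative for 9, with a median of 0.35 and a range from -0.26 to 0.98, beside a median of 0.01 over all 15029 tested genes. In edgeR's quasi-likelihood test with Benjamini-Hochberg adjustment over all tested genes, 12 subunits rose at an adjusted p of at most 0.05 and none fell, where the background was 2.88% of all tested genes higher and 2.2% lower. None of the 59 also reached an absolute log2 fold change of 1, the cutoff for a call, which 1.08% of all tested genes passed upward and 1.2% downward. At an unadjusted p of at most 0.05, 37 subunits were higher and 0 lower, beside 15.5% and 15.1% of all tested genes. DESeq2 likewise called none and found 23 subunits higher past the adjusted p alone, but it also placed 9.68% of all genes it tested there as higher and 9.43% as lower. The 3 preconditioned libraries all lay above the 3 fresh libraries for 43 subunits and all below for 1, beside 17.9% and 18.8% of all tested genes.

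Per library the shift was even. The median log2 ratio of the 59 subunits to their fresh mean was 0.09, -0.07 and -0.01 in fresh replicates 1, 2 and 3, and 0.31, 0.37 and 0.33 in preconditioned replicates 1, 2 and 3. Their summed share of all counts was 0.723%, 0.642% and 0.653% in the fresh and 0.741%, 0.742% and 0.759% in the preconditioned libraries, so the groups did not overlap. The subunits also varied little within a group, with a median SD on the log2 scale of 0.121 in the fresh and 0.0969 in the preconditioned group, beside 0.179 and 0.255 over all tested genes. Fresh replicate 2 held the lowest of the 6 values for 32 of the 59 subunits and fresh replicate 3 for 19.

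**Figure D1:**
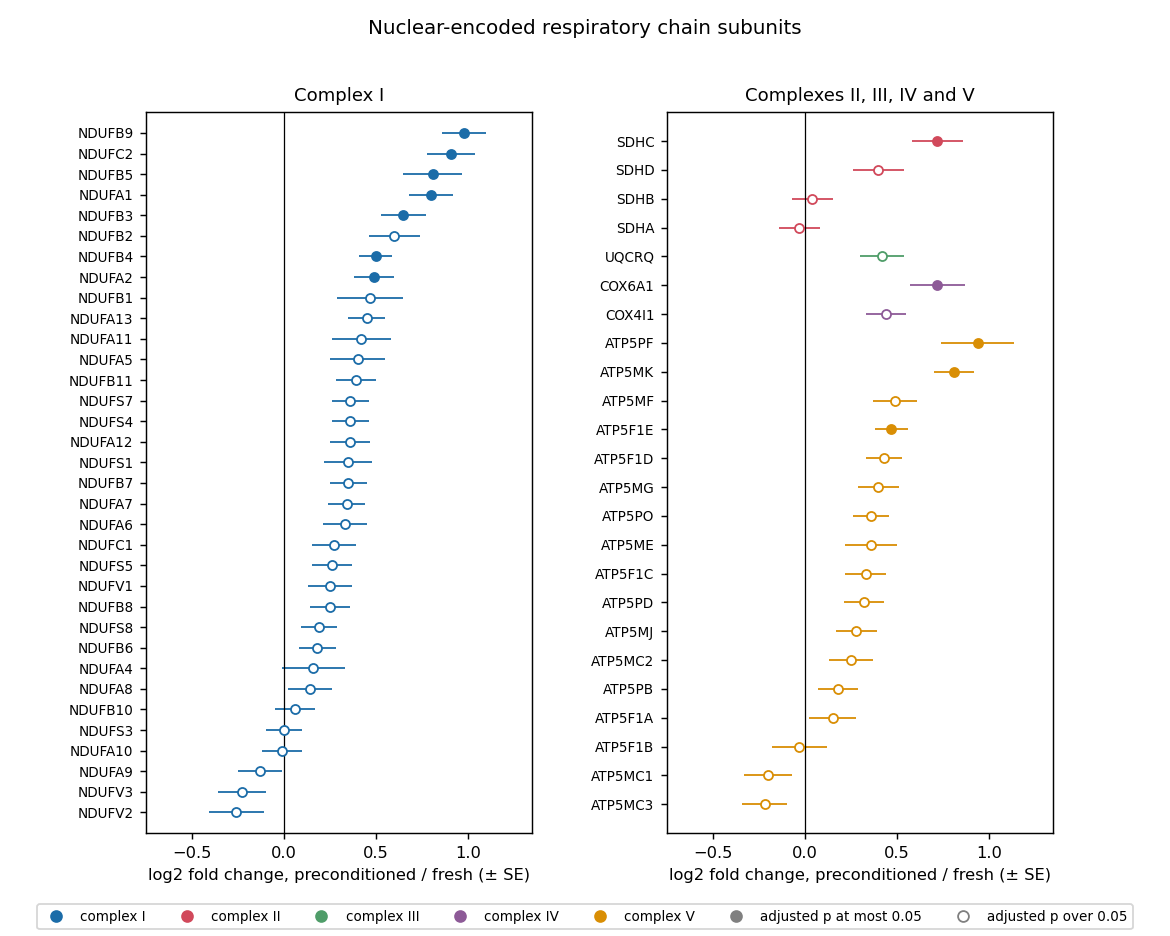
Log2 fold change (preconditioned over fresh, x axis, ± SE) of 58 of the 59 nuclear-encoded subunits, sorted by complex and colored by it. Filled points passed an adjusted p of 0.05. The points range from NDUFV2 at -0.26 to NDUFB9 at 0.98, and the 12 filled points are all positive.

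The count of 12 depended on each library. It was 0 without fresh replicate 1, 2 or 3 or preconditioned replicate 2, 1 without preconditioned replicate 3, and 23 without preconditioned replicate 1, while the median stayed between 0.31 and 0.39. With library size alone in place of the scaling factors the medians were 0.19 for the subunits and -0.16 for all tested genes, and 7 subunits passed.

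Over all tested genes the log2 fold change was larger in shorter genes, and these subunits are short. The gene lengths implied by the deposited counts and FPKM values (counts divided by the library total and the gene length) ran from 386 to 2577 bases for the subunits, with a median of 809, against a median of 3114 over all tested genes with a length. The median log2 fold change of all genes was 0.41 up to 500 bases, 0.28 from 500 to 750, 0.17 from 750 to 1000, 0.11 from 1000 to 1500 and -0.07 from 3000 to 5000. In the same classes up to 1500 bases the medians of the subunits were 0.44, 0.35, 0.42 and 0.25, over 6, 21, 14 and 12 subunits. Set against the median of its own length class, 39 of 59 subunits were higher, and the median difference was 0.09 on the log2 scale in place of 0.35. By complex this difference was 0.09 for complex I, 0.13 for II, 0.25 for the only subunit of III, 0.38 for the pair in IV and 0.08 for V. The part of gene length in the shift was not tested beyond these values.

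**Figure D2:**
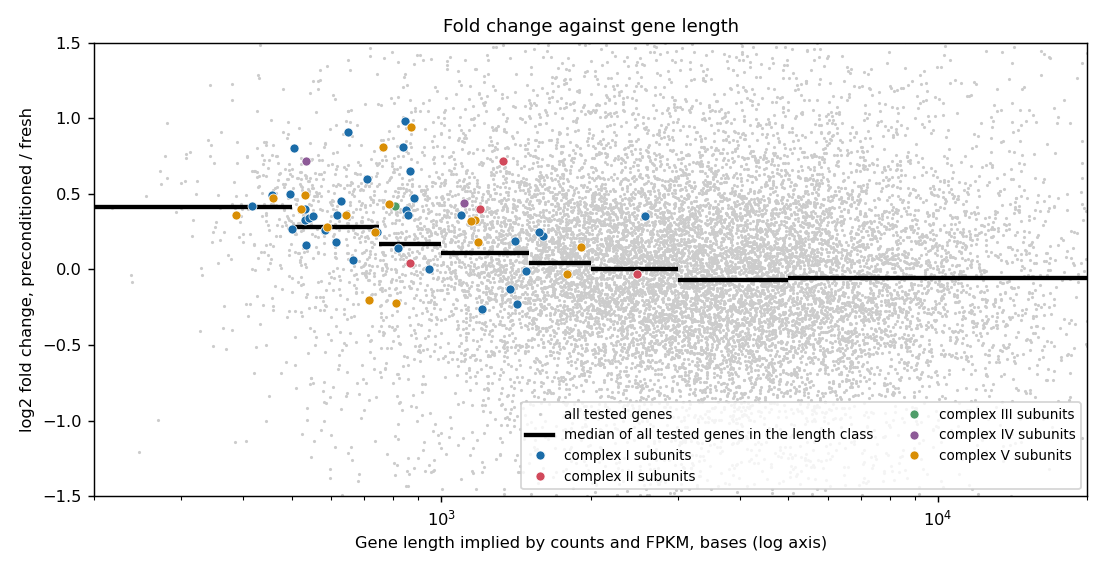
Log2 fold change (y axis) against implied gene length in bases (x axis, log scale) for all tested genes (grey) and the subunits by complex (colored). Black bars are the medians of all genes in each length class and go from 0.41 in the shortest to -0.06 in the longest class, and the subunits lie at the short end on both sides of the bars. Some grey genes fall outside the plotted range.

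Complex I, the NADH dehydrogenase, had 7 of 35 subunits that rose and none that fell, with a median log2 fold change of 0.35. All 7 are accessory subunits, which surround the catalytic core and make up 28 of the 35, with NDUFA4 counted among them by its name. Whether accessory and core subunits differ was not tested.

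The NDUFB subunits, which build the far end of the membrane arm, had 11 of 11 positive log2 fold changes. The groups did not overlap for 10, 4 rose, and the median was 0.47. NDUFB5 was at 73.7, 68.2 and 60.8 CPM in the fresh and 92.8, 128 and 134 CPM in the preconditioned libraries, a log2 fold change of 0.81 ± 0.16 (SE, adjusted p = 0.043). NDUFB3 went from 45.1 to 55.3 CPM in the fresh group to 73.3 to 82.4 CPM (0.65 ± 0.12, adjusted p = 0.039). NDUFB4 went from 52.1 to 54.5 CPM to 74.2 to 76.9 CPM (0.50 ± 0.09, adjusted p = 0.039), with less than 3 CPM between the libraries of either group. NDUFB10 was the flattest of the family at 0.06 ± 0.11.

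NDUFC2, another subunit of the membrane arm, was at 99.5, 81.9 and 102 CPM in the fresh and 157, 182 and 193 CPM in the preconditioned libraries (0.91 ± 0.13, adjusted p = 0.031). Its partner NDUFC1 lay at 0.27 ± 0.12 and did not pass. NDUFA1, a small membrane subunit needed for assembly of the complex, was at 48.0, 44.2 and 48.3 CPM against 72.1, 84.0 and 88.9 CPM (0.80 ± 0.12, adjusted p = 0.031). All preconditioned libraries lay above all fresh libraries for these genes. Of the 12 NDUFA subunits, NDUFA2 was the other that rose (0.49 ± 0.11, adjusted p = 0.049), and the family median was 0.35.

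The 3 NDUFV subunits belong to the module that oxidizes NADH and had a median of -0.23. NDUFS1 and NDUFA2, which are placed in the same module, were on the other side of 0, at 0.35 and 0.49. NDUFV2, an iron-sulfur core subunit, was at 91.2, 86.3 and 75.7 CPM in the fresh and 84.5, 63.0 and 63.7 CPM in the preconditioned libraries (-0.26 ± 0.15, adjusted p = 0.27), and its groups overlapped. NDUFV3 was at 21.7, 22.9 and 23.4 CPM against 20.1, 19.9 and 18.0 CPM (-0.23 ± 0.13, adjusted p = 0.27). It was the only subunit of the 59 whose preconditioned libraries all lay below the fresh ones. NDUFV1, which binds NADH and the flavin, stood at 0.25 ± 0.12. NDUFA9, a subunit beside the quinone site, was also below 0, at -0.13 ± 0.12. Per length, NDUFV3 was the lowest subunit of complex I, with a mean FPKM of 14.9 over the 6 libraries, and NDUFA4 the highest with 297. NDUFA4 is now placed in complex IV despite its name, and its log2 fold change was 0.16 ± 0.17.

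NDUFB9, an accessory subunit of the membrane arm, had the largest log2 fold change of all 59 subunits, at 0.98 ± 0.12 (adjusted p = 0.020). It was at 36.2, 39.2 and 43.1 CPM in the fresh libraries and 84.8, 77.8 and 71.5 CPM in the preconditioned libraries. A gene without a symbol, LOC127486440, is described as the same subunit. It was at 32.9, 32.6 and 29.1 CPM in the fresh group and 0.274, 0.543 and 0.230 CPM in the preconditioned group (-6.48 ± 0.32, adjusted p = 0.0006). The named gene was higher where its copy was nearly absent. Together they were at 69.1, 71.8 and 72.2 CPM in the fresh and 85.1, 78.3 and 71.7 CPM in the preconditioned libraries, and with the counts added before the fit the log2 fold change was 0.14 ± 0.10 (adjusted p = 0.39). NDUFB9 held 52.4% to 59.8% of this sum in fresh libraries and 99.3% to 99.7% in preconditioned ones. In the RefSeq annotation of the assembly mOryCun1.1 the symbol NDUFB9 belongs to the gene ID of LOC127486440, and the gene ID of the NDUFB9 row is not listed.

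Complex V held a case of the same form. ATP5PF, coupling factor 6 of the peripheral stalk, was at 64.8, 52.2 and 82.4 CPM in the fresh and 139, 143 and 102 CPM in the preconditioned libraries (0.94 ± 0.20, adjusted p = 0.048). Of the 3 genes without a symbol described as coupling factor 6, LOC100344965 was at 42.7, 41.8 and 15.8 CPM in the fresh and 0.335, 0.128 and 0.527 CPM in the preconditioned libraries (-6.65 ± 0.61, adjusted p = 0.012). The fresh library with the least of the copy, replicate 3, had the most of ATP5PF. The sum of the 4 genes was 120 CPM, 107 CPM and 107 CPM in the fresh group and 145 CPM, 160 CPM and 132 CPM in the preconditioned group, and the groups still did not overlap (0.39 ± 0.11, adjusted p = 0.077). NDUFB1, a small accessory subunit of complex I, had a copy that rose, LOC103348994, from 1.69 to 2.82 CPM in the fresh libraries to 7.22 to 9.84 CPM (1.93 ± 0.29, adjusted p = 0.031), but the copy was a small part of the sum. Reads that match a gene and its copy equally well cannot be assigned with certainty, and the division between the rows is uncertain. Copies, 16 in all, were found for 12 of the 59 subunits, and 3 of these (NDUFB9, ATP5PF and ATP5MK) are among the subunits that rose. With all copies added to their named genes ATP5MK still passed, and NDUFB9 and ATP5PF did not.

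**Figure D3:**
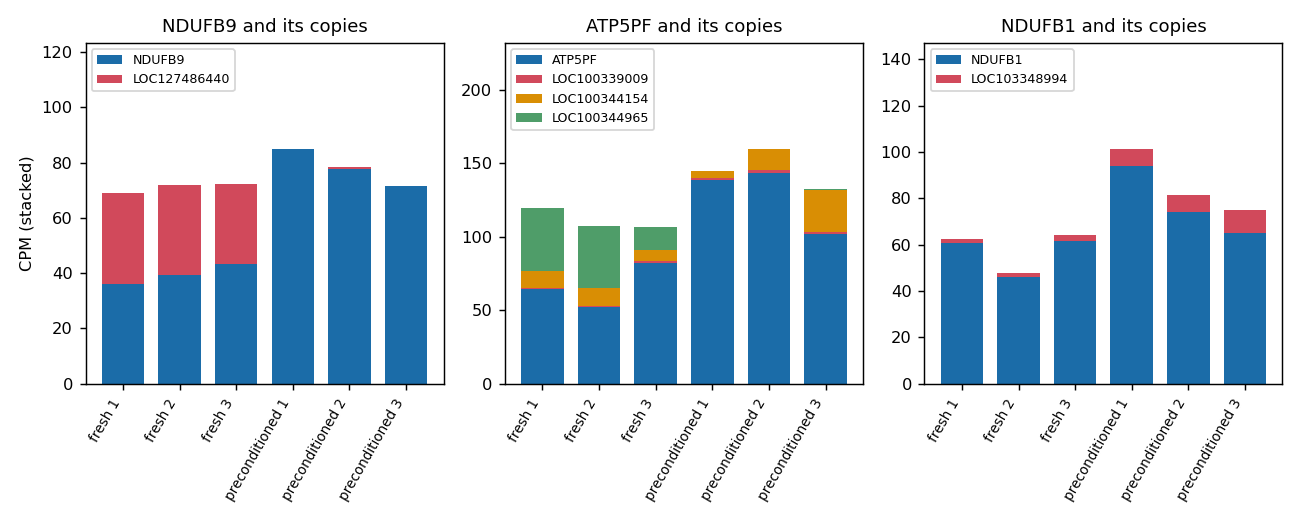
CPM (y axis, stacked) of NDUFB9, ATP5PF and NDUFB1 and of the genes described as the same subunit in each of the 6 libraries. The copies LOC127486440 and LOC100344965 can be seen in the bars of the fresh libraries, where LOC100344965 is smallest in replicate 3, and not in the preconditioned libraries, where the named gene takes up most of the height.

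Complex II, succinate dehydrogenase, also a part of the citric acid cycle, split by position. SDHC, a membrane anchor, was at 171, 158 and 158 CPM in the fresh and 220 CPM, 297 CPM and 284 CPM in the preconditioned libraries (0.72 ± 0.14, adjusted p = 0.040). SDHD, the other anchor, was at 61.3, 52.5 and 47.8 CPM against 62.3, 73.6 and 77.1 CPM (0.40 ± 0.14, adjusted p = 0.11). Both anchors had preconditioned libraries above every fresh library. The catalytic subunits overlapped between the groups, with SDHA, the flavoprotein, at -0.03 ± 0.11 and SDHB, the iron-sulfur subunit, at 0.04 ± 0.11. The difference between anchors and catalytic subunits was not tested.

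Complexes III and IV were poorly covered by symbol. UQCRQ, a small subunit of complex III, was at 122, 117 and 129 CPM in the fresh and 168, 182 and 141 CPM in the preconditioned libraries (0.42 ± 0.12, adjusted p = 0.080). COX4I1, the isoform of subunit 4 found in most tissues, was at 317, 300.3 and 283 CPM against 374, 410 and 440.0 CPM (0.44 ± 0.11, adjusted p = 0.061). COX6A1, the common isoform of subunit 6A, was at 198, 193 and 172 CPM against 253, 348 and 324 CPM (0.72 ± 0.15, adjusted p = 0.044). The groups did not overlap for any of the 3 genes, and COX6A1 alone passed the test.

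Other subunits of complexes III and IV stood in the table without a symbol and were found by their descriptions. For complex III, 10 genes were found for 7 subunits that the naming pattern covers, all tested, with a median log2 fold change of 0.32 and 2 that rose. Those were the small subunits UQCR10 (LOC100358208, 0.75 ± 0.12, adjusted p = 0.032) and UQCR11 (LOC127485529, 0.72 ± 0.11, adjusted p = 0.032), whose counts rose from 73.6 to 89.6 CPM to 124 to 145 CPM and from 67.5 to 79.9 CPM to 119 to 135 CPM. The large core proteins UQCRC1 (LOC100347571) at -0.11 ± 0.10 and UQCRC2 (LOC100347143) at 0.27 ± 0.13 did not pass. Neither did the small subunits UQCRB (LOC100337966) at -0.09 ± 0.12 and UQCRH (LOC100343982) at 0.71 ± 0.16 (adjusted p = 0.051), or the iron-sulfur protein UQCRFS1 (LOC100350787) at 0.20 ± 0.10. Cytochrome c1 (LOC127486945), another subunit of complex III, lies outside the naming pattern and is not among the 10. It was at 111 to 115 CPM in the fresh and 95.0 to 122 CPM in the preconditioned libraries (-0.07 ± 0.12, adjusted p = 0.73).

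For complex IV there were 28 genes for 14 subunits, of which 16 were tested, with a median of 0.52 and 4 that rose. COX7C (LOC108177262) was at 226, 200 and 202 CPM in the fresh and 320 CPM, 367 CPM and 349 CPM in the preconditioned libraries (0.72 ± 0.11, adjusted p = 0.031). COX6C (LOC100340645) reached 0.72 ± 0.14, COX7A2 (LOC103349801) 0.59 ± 0.11, and COX7A2L (LOC100358239), which takes part in the joining of complexes III and IV, 0.70 ± 0.12, with adjusted p values of 0.042, 0.041 and 0.037. The muscle isoforms COX6A2, COX7A1 and COX8B, the lung isoform COX4I2 and the testis isoform COX7B2 were each at or below 0.230 CPM in every library. The genes without a symbol were chosen after the table had been read, and over all 56 of them 41 were tested, 7 rose and 2 fell, the copies of NDUFB9 and ATP5PF.

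Complex V had 3 of 17 subunits that rose, none that fell and a median of 0.33. Besides ATP5PF these were ATP5MK, a small membrane subunit, and ATP5F1E, the epsilon subunit of the central stalk. ATP5MK was at 114, 97.8 and 106 CPM in the fresh and 176, 183 and 197 CPM in the preconditioned libraries (0.81 ± 0.11, adjusted p = 0.026). ATP5F1E was at 86.6, 81.8 and 83.8 CPM against 121, 114 and 115 CPM (0.47 ± 0.09, adjusted p = 0.041). The groups were well apart in both genes. ATP5MF, another small membrane subunit, was at 103, 84.0 and 96.6 CPM against 134, 140.4 and 123 CPM, also without overlap, and did not pass (0.49 ± 0.12, adjusted p = 0.055).

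The 3 genes for the c subunit of the proton-driven ring, whose mature proteins are identical, had values on both sides of 0. ATP5MC2 was at 0.25 ± 0.12, whereas ATP5MC1 was at -0.20 ± 0.13 and ATP5MC3 at -0.22 ± 0.12, and none passed. ATP5MC3 was at 223, 181 and 214 CPM in the fresh and 194, 171 and 166 CPM in the preconditioned libraries, with overlap. In the catalytic head, ATP5F1A, the alpha subunit and the most abundant subunit of complex V per length, had a mean FPKM of 500.1 ± 59.1 (SD, n = 3) in the fresh and 493 ± 32.5 in the preconditioned group. In CPM, which unlike FPKM use the scaling factors, its means were 900 and 998 (0.15 ± 0.13, adjusted p = 0.47). ATP5F1B, the beta subunit that pairs with it, was listed far lower, at an FPKM of 46.8 ± 6.34 and 40.8 ± 4.77. A copy of ATP5F1B without a symbol, LOC100353514, was at a mean FPKM of 40.1 and 44.1 in the same groups. In the RefSeq annotation of mOryCun1.1 the symbol ATP5F1B belongs to the gene ID of LOC100353514, and that of the ATP5F1B row is not listed. ATP5IF1, the inhibitor of the ATP synthase, which lies outside the naming pattern, rose from 95.4 to 112 CPM to 148 to 152 CPM (0.57 ± 0.10, adjusted p = 0.039).

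The 13 mitochondrially encoded subunits had the opposite sign and far less even values. Their log2 fold changes were all negative, with a median of -1.19, but only ND5 passed the test and 0 were called. ND5, a proton-pumping subunit of complex I, was at 3283, 3353 and 2616 CPM in the fresh and 1948, 1497 and 1786 CPM in the preconditioned libraries (-0.82 ± 0.16, adjusted p = 0.040). It passed without preconditioned replicate 1 (adjusted p = 0.012) but not when any other library was left out (adjusted p of 0.077 to 0.15). No overlap between the groups was seen for 5 of these 13 genes (ND5, ND4L, CYTB, COX3 and ATP8), which is 38.5% beside 18.8% of all tested genes. Most of the 13 genes varied together between libraries, so this percentage does not rest on 13 separate results. The summed share of the 13 genes in all counts was 1.84%, 1.73% and 1.21% in the fresh libraries and 1.09%, 0.499% and 0.406% in the preconditioned libraries. The median log2 ratio of the 13 genes to the fresh mean was 0.24, 0.11 and -0.43 in the fresh and -0.35, -1.16 and -4.30 in the preconditioned libraries. Fresh replicate 3 was thus close to preconditioned replicate 1, and preconditioned replicate 3 stood apart from all. Without preconditioned replicate 3 the median over the 13 genes was -0.77 and that over the 59 nuclear-encoded subunits was 0.34.

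**Figure D4:**
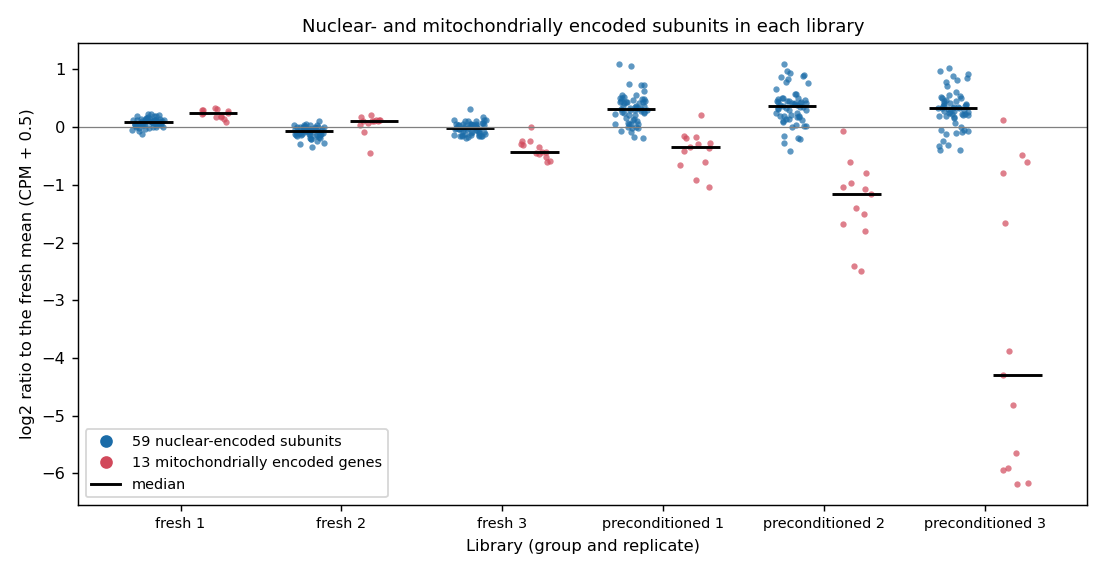
Log2 ratio to the mean of the fresh libraries (y axis) of the 59 nuclear-encoded subunits (blue) and the 13 mitochondrially encoded genes (red) in each of the 6 libraries (x axis), with the median as a black line. The blue medians lie at 0.31 to 0.37 in the preconditioned libraries, and the red medians step down to -4.30 in preconditioned replicate 3.

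The mitochondrially encoded genes were not equally low in preconditioned replicate 3. ND4 was at 1368 CPM there, beside 987 CPM to 1419 CPM in the fresh group, CYTB, the core of complex III, was at 835 CPM, below its 1037 CPM to 1404 CPM in the fresh group, and ND3 was at 74.0 CPM, close to the 75.2 CPM of fresh replicate 3. COX2, a core subunit of complex IV, was at 2916, 2850 and 1611 CPM in the fresh libraries and 1846, 464 and 33.4 CPM in the preconditioned libraries. COX1, the catalytic subunit of complex IV, was at 2940, 2557 and 1660 CPM against 2144, 905 and 83.9 CPM. ND2 had few counts, with at most 10.3 CPM in any library. ATP6, the channel subunit of the ATP synthase, was at 1503, 1406 and 1068 CPM against 1102, 381 and 21.8 CPM. In the usual gene order of the mammalian mitochondrial genome, the genes from ND1 to COX3 had log2 ratios of -6.18 to -3.88 to the fresh mean in this library. The ratios are taken after adding 0.5 CPM, which draws the ratio of a gene near 0 CPM toward 0, and the -3.88 is that of ND2, with 4 counts there. Beyond COX3 the ratios were -0.48 for ND3, 0.13 for ND4, -0.79 for ND5 and -0.61 for CYTB, but -4.30 for ND4L (9.51 CPM) and -1.67 for ND6, which is read from the other strand (8.0 CPM). ND4L and ND4 lie on a shared transcript, and the counts of overlapping genes are uncertain. In preconditioned replicate 2 the lowest ratios were those of COX3 and COX2, and in preconditioned replicate 1 those of ND4L and ATP8.

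**Figure D5:**
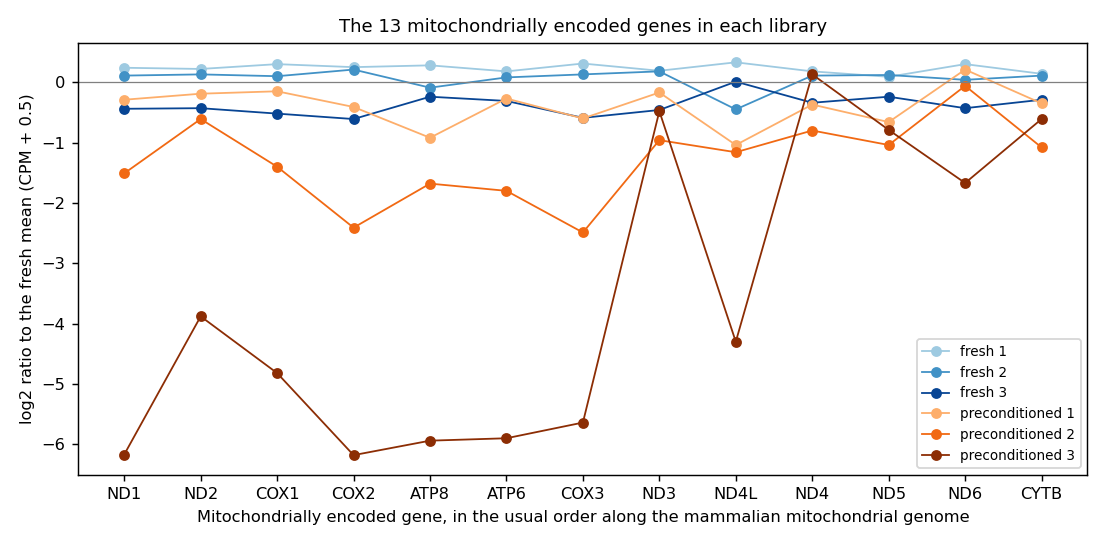
Log2 ratio to the mean of the fresh libraries (y axis) of the 13 mitochondrially encoded genes along the mitochondrial genome (x axis) in each library. Preconditioned replicate 3 (dark brown) lies near -6 for ND1 and from COX2 to COX3 and between -0.79 and 0.13 for ND3, ND4, ND5 and CYTB.

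Side by side within a complex, the balance between the genomes shifted in every preconditioned library. Over complex IV the median FPKM of the 3 mitochondrially encoded subunits was 10.4, 10.8 and 6.21 times that of the nuclear-encoded ones (named and described) in the fresh libraries and 5.44, 1.93 and 0.159 times in the preconditioned libraries. The nuclear-encoded side held 16 subunits, among them the tissue isoforms near 0, which lower its median. In fresh replicate 1 this median was 274, beside 347 for the 2 named subunits alone, and in preconditioned replicate 3 it was 292 beside 477. For complex I the ratio was 9.96, 6.39 and 8.56 against 3.20, 2.91 and 0.326. Its mitochondrial median is the value of ND4L in every library, so the drop in preconditioned replicate 3 is that of ND4L, and the summed level of the 7 mitochondrially encoded genes of complex I was 6380, 6164 and 4692 CPM against 4023, 2763 and 3260 CPM. For complex V the ratio was 7.97, 8.24 and 6.20 against 4.19, 1.77 and 0.0966. For complex III, with CYTB alone on the mitochondrial side, it was 7.68, 8.40 and 5.90 against 4.81, 2.83 and 4.52. In all 4 complexes the preconditioned libraries lay below every fresh library. Over the same libraries the median FPKM of the 35 named subunits of complex I stayed within 78.6 to 96.8 in all libraries.

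Of the electron carriers and subunits outside the naming pattern, 3 of 5 were in the table under their symbols, with a median log2 fold change of 0.57. They were ATP5IF1, which rose, NDUFA4L2 at 0.71 ± 0.40 and NDUFAB1 at 0.15 ± 0.14. The lists of assembly factors, regulators, mitochondrial content and citric acid cycle enzymes had medians closer to 0. Of the assembly factors, which help to build the complexes, 22 of 47 were in the table under their symbols, with a median log2 fold change of 0.15, 1 that rose and 1 that fell. Past the adjusted p in either direction were thus 9.09% of them, beside 5.08% of all tested genes. NDUFAF3, an assembly factor of complex I, was at 28.0 to 33.8 CPM in the fresh and 43.3 to 49.1 CPM in the preconditioned libraries (0.57 ± 0.12, adjusted p = 0.046). ACAD9, another factor for complex I, was at 58.6, 58.0 and 54.8 CPM against 35.6, 22.3 and 28.1 CPM (-0.99 ± 0.18, adjusted p = 0.038). Among 23 genes found only by their description as an assembly factor, 3 of which are described as the same factor, 2 rose and none fell, with a median of 0.09. These were PET100 (LOC100340355, 0.80 ± 0.12, adjusted p = 0.031) and the copper chaperone of cytochrome c oxidase (LOC100352275), both for complex IV. Most of the 23 genes are described as factors of that complex. The chaperone was at 96.8, 73.1 and 82.3 CPM in the fresh and 153, 186 and 274 CPM in the preconditioned libraries (1.28 ± 0.23, adjusted p = 0.038).

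Regulators of respiratory genes and of mitochondrial transcription had a median of -0.14 over 12 tested, with 9 negative, 0 that rose and 1 that fell. The share past the adjusted p in either direction was 8.33%, beside 5.08% of all tested genes. PPARGC1B, a coactivator of respiratory genes, was at 7.68, 9.73 and 10.2 CPM in the fresh and 4.08, 2.94 and 3.46 CPM in the preconditioned libraries (-1.40 ± 0.24, adjusted p = 0.037), and of the fits that left out a library it passed only the one without preconditioned replicate 1. TFAM, which packages and transcribes the mitochondrial genome, was at 35.8, 33.1 and 31.3 CPM against 28.0, 14.6 and 22.6 CPM, without overlap, and did not pass (-0.62 ± 0.23, adjusted p = 0.13). NRF1, the transcription factor of many respiratory genes, stood at -0.04 ± 0.16. Genes used as a measure of mitochondrial content had a median of -0.12 over 10, and the citric acid cycle enzymes had a median of -0.05 over 10 with none that passed. TIMM23, a channel of protein import, fell by 2.74 on the log2 scale (adjusted p = 0.045). Its level was only 3.58 to 16.6 CPM in the fresh group, and a gene without a symbol described as Tim23, LOC100347175, stood at 0.46 ± 0.16 with 1478 to 2568 counts in all libraries. Levels of the carrier cytochrome c were spread over 12 genes without a symbol, 6 of them tested and none past the adjusted p. The main one, LOC100341175, had 5063, 3135 and 6781 counts in the fresh and 7482, 17540 and 11767 counts in the preconditioned libraries (1.48 ± 0.39, adjusted p = 0.065).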

How the data were processed

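RNA-seq was performed on 3 fresh and 3 preconditioned libraries of rabbit LSCs. The authors aligned reads with hisat2 and deposited htseq-count read counts per gene without normalization. The FPKM values that the authors deposited are counts per library total and gene length. The genome build, annotation and strand setting are not given in the sources used here, and RNA extraction is given as TRIzol in the sample records but as an Omega kit in the paper's methods. Groups and replicate numbers were taken from the sample titles.

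The counts were fitted with edgeR 4.0.16 (R 4.3.3). Of 22190 genes, 15029 passed filterByExpr. Libraries were scaled by TMM, and the groups were compared by the quasi-likelihood test with robust estimation and Benjamini-Hochberg adjustment over all tested genes. The study used DESeq2, which served here as an alternative. SEs were derived from the F statistic. A call needed a log2 fold change of 1 or more in size together with an adjusted p no larger than 0.05, and "rose" and "fell" mark an adjusted p of at most 0.05 alone. CPM are scaled by TMM and FPKM are not. Log2 ratios were taken after adding 0.5 CPM. Depth was 31952352 to 34327534 counts, and precision is set mainly by how far replicate libraries differ. The p values measure the spread between these libraries, which may be technical.

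The subunits, gene lists and comparisons were chosen with earlier results of these data known. Named genes were, by rule, the 3 highest and 3 lowest log2 fold changes in complexes I, IV and V, all members of complexes II and III, isoforms of a subunit, the extremes of mean FPKM in each complex, the 13 mitochondrially encoded genes, called genes described as subunits and called genes of the companion lists. All others were named after their values had been seen, as were the length classes and the genes found by description. Of the 59 gene IDs, 56 matched RefSeq (mOryCun1.1), all with the same symbol, and of the 56 genes without a symbol 47 matched. Sequences were not used here, and 1 subunit that is part of the counts and medians was left out of the plot of log2 fold changes.

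The alternatives were DESeq2 1.42.0 (Wald test), DESeq2 size factors, library size alone, totals without mitochondrial genes, other count filters, the replicate number as a block, no robust estimation, limma-trend (limma 3.58.1) on log2(FPKM + 1) or log2(FPKM + 0.1), each library left out, and copies added.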

Additional observations from a re-analysis of the deposited data

How the results depend on the processing

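The direction of the median over the 59 nuclear-encoded subunits held under every alternative run, and the number past the adjusted p did not. Against 12 subunits, DESeq2 gave 23, library size alone 7 and limma-trend on either FPKM scale 5, and leaving out libraries gave 0 to 23. Subunits called stood at 0 throughout, apart from 0 to 1 over the left-out libraries (NDUFB9 without preconditioned replicate 3) and 12 with no fold change cutoff. Genes called over all tested genes numbered 344, and 763 with no fold change cutoff, 1190 with DESeq2, 564 with library size alone (142 higher and 422 lower, against 163 and 181), 521 with limma-trend on log2(FPKM + 0.1) and 14 to 1546 over the left-out libraries.

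Median log2 fold changes with library size alone were 0.19 for all subunits and 0.18, 0.05, 0.25, 0.41 and 0.16 for complexes I to V, beside -0.16 for all tested genes. With limma-trend on log2(FPKM + 1) they were 0.18, and 0.18, 0.05, 0.24, 0.40 and 0.16 by complex, and with log2(FPKM + 0.1) 0.19, and 0.19, 0.05, 0.24, 0.40 and 0.16. Both scales divide by the library total alone, and the medians of all tested genes were -0.09 and -0.15. With NDUFA4 moved to complex IV its median was 0.44.

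With the replicate block, 0 subunits passed the adjusted p and 30 genes were called, and the median of the mitochondrially encoded genes was -2.0 in place of -1.19. Deviations from the group means correlated at -0.0734, -0.0799 and -0.123 between same-numbered libraries and at -0.237 to 0.269 between the others. With 3 libraries per group these deviations sum to 0 within each group, so the correlations cannot decide whether libraries were paired. No source used here says whether the replicate numbers mark pairs.

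Values near 0 changed sign without passing any test. ATP5F1A was at -0.02 and SDHB at -0.13 with library size alone and with both limma-trend scales. ATP5F1B was at 0.13 with its copy added. Over the left-out libraries ATP5F1B ran from -0.15 to 0.09, ND6 from -0.68 to 0.09, SDHA from -0.10 to 0.01 and SDHB from -0.03 to 0.08. The copy of NDUFB9, LOC127486440, stayed called in every fit that tested it. LOC100344965 lost its call under the block and without fresh or preconditioned replicate 2, TIMM23 under the block, with limma-trend on log2(FPKM + 1) and without fresh replicate 1 or 2 or preconditioned replicate 2 or 3, and LOC103348994 under the block and without any library but preconditioned replicate 1. PPARGC1B was not called under the block (adjusted p = 0.098), with limma-trend on log2(FPKM + 1), where its log2 fold change was -0.56, or without any library but preconditioned replicate 1. The cause was not tested. Depth limited only genes with few counts, such as the muscle isoforms of complex IV.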
